A study of Mus musculus with 2 samples.

Results

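The germline and meiosis genes are a set of 37 genes whose products act in germ cells, and many but not all of them are silent in most somatic tissues. The 37 genes were looked up by name among the 21935 gene symbols of a pair of RNA-Seq libraries. For each symbol, the RefSeq transcript entry with the highest mean RPKM (reads per kilobase of transcript, normalized to the aligned reads of the library) was kept. 35 of the 37 had at least 10 reads in both libraries together and were compared. *Asz1*, a component of the machinery that loads piRNAs, had 3 reads in shLuc and 4 in shKdm5b ES cells. *Spo11*, the enzyme that cuts DNA to start meiotic recombination, had 0 reads in both, and a limit of 3 reads allows up to 0.0234 RPKM in shLuc and 0.0251 RPKM in shKdm5b.

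Both libraries were made from R1, a line of mouse embryonic stem (ES) cells grown on irradiated embryonic fibroblasts with LIF, the cytokine that sustains self-renewal, and then cultured for 72 h without LIF so that they differentiate, per the labels in low attachment dishes. shKdm5b ES cells carry a short hairpin RNA (shRNA) that depletes *Kdm5b* transcripts, and the control shLuc ES cells carry an shRNA against luciferase. Polyadenylated RNA was sequenced from 1 library per condition, with 78172698 aligned reads for shLuc and 72702698 for shKdm5b. No difference below therefore has a replicate check, no p-value is given, and effects of the library cannot be told apart from those of the condition.

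*Kdm5b* itself had 51378 reads (104 RPKM) in shLuc and 1377 reads (3.01 RPKM) in shKdm5b ES cells, so 2.88% of the control level was left. The 10 ES cell markers, among them *Pou5f1*, *Sox2* and *Nanog*, all had RPKM above 1 in both libraries. They summed to 3098 RPKM in shLuc and 3169 RPKM in shKdm5b. By the rule given below, 0 were called higher and 2 lower, beside 11.2% and 25.2% of all genes. The lower ones were *Pou5f1*, which encodes OCT4, at 619 and 182 RPKM (log2 ratio -1.76, and -1.06 after GC correction), and *Esrrb*, a nuclear receptor of self-renewing cells, at 80.5 and 41.2 RPKM, while *Dppa5a*, at 1096 and 1651 RPKM, made up much of the sum. The 12 fibroblast markers had a summed level of 8.14 RPKM in shLuc and 14.4 RPKM in shKdm5b. Among the 10 with enough reads, 3 were higher in the shKdm5b library and 0 lower, beside the same shares of all genes. The higher markers were *Twist1* (1.95 and 7.05 RPKM), *Lox* (0.263 and 0.546 RPKM) and *Dcn* (0.121 and 0.330 RPKM), and 8 of the 10 ratios were above 0, among them that of *Pdgfrb* (0.501 and 0.819 RPKM). With a 99% interval, a 2-fold limit or a pseudocount of 0.1 RPKM, only 1 fibroblast marker was higher. After GC correction 3 were higher, without *Lox* and *Dcn*, and 4 were when the libraries were scaled to a common median. *Postn* had 3 reads and 0 reads, and *Col1a1* had 0.474 and 0.395 RPKM. Whether other cell types had a part in the results was not tested, and in RNA from whole cultures a change in the number of cells that express a gene cannot be told apart from a change in RNA per cell.

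Germ cells use a set of proteins that most other cells never make. RNA helicases and tudor-domain proteins load small piRNAs that silence transposons, cohesins and synaptonemal complex proteins hold homologous chromosomes together in meiosis, and factors such as STRA8 start the meiotic programme. Outside the germline, many of these genes have CpG-rich promoters that are kept silent by DNA methylation, by methylation of H3K9, and by PRC1.6, a polycomb complex whose subunits E2F6 and MGA-MAX bind E2F sites and E-boxes. KDM5B removes methyl groups from H3K4, a histone mark of active promoters, so the comparison asks whether transcripts of silenced germline genes are more abundant in cells depleted of it.

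Germline transcripts moved in both directions, with more of them higher than lower in shKdm5b ES cells. A gene was called higher or lower when the whole 95% counting interval of its ratio (exact Clopper-Pearson, reads scaled to the library totals, counting error only) lay past 1.5-fold. 11 of the 35 genes were higher (31.4%), against 11.2% of the 16099 genes of all kinds compared in the same way. They were *Ddx4*, *Mael*, *Tdrkh*, *Stra8*, *Sycp3*, *Syce2*, *Smc1b*, *Taf7l*, *Brdt*, *Zp3* and *Figla*. 5 genes were lower (14.3%), against 25.2% of all genes, namely *Tdrd7*, *Tex19.1*, *Syce1*, *Tex14* and *Nobox*. The remaining 19 were past neither limit.

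**Figure D1:**
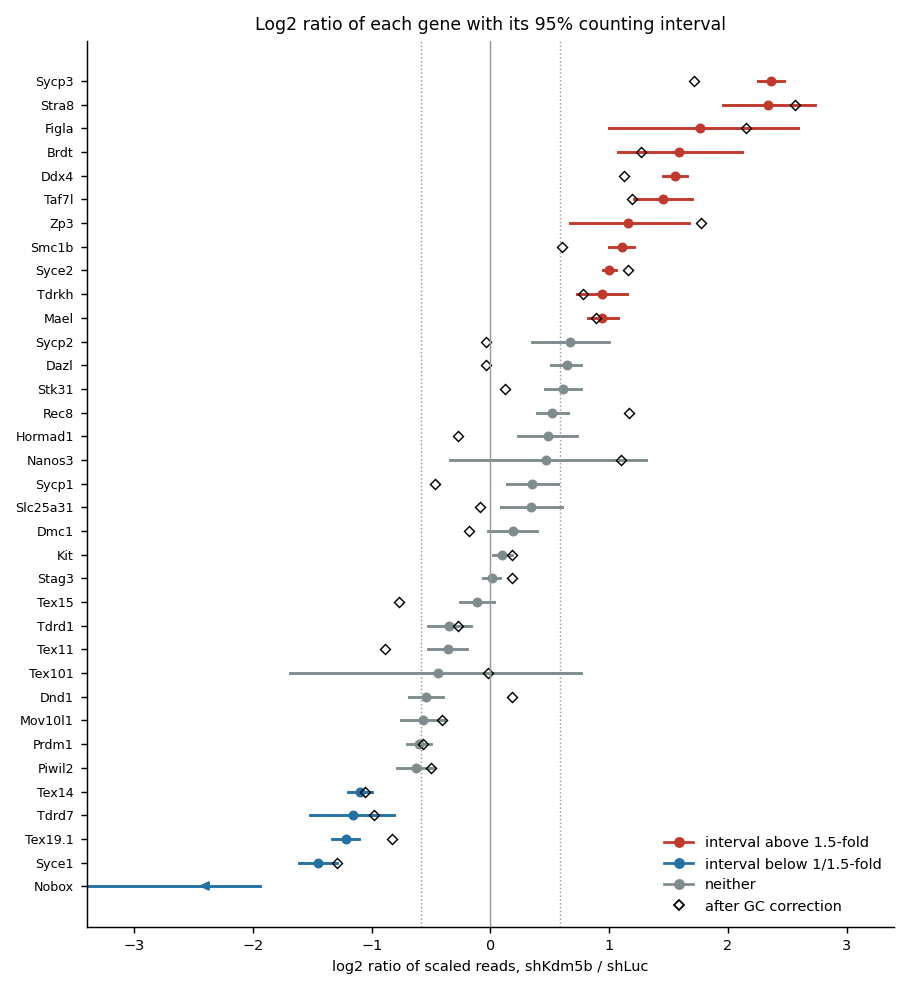
Log2 ratio of shKdm5b to shLuc reads (x axis) for the 35 germline genes with at least 10 reads, with bars for the 95% counting interval, coloured by call, dotted lines at 1.5-fold in each direction and open diamonds for the ratio after GC correction. 11 genes lie wholly above the upper line and 5 wholly below the lower one, and the triangle for *Nobox*, with 0 reads in shKdm5b, marks the ratio at a floor of 3 reads, with no diamond drawn.

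Over the 35 genes the median log2 ratio came to 0.35, with 22 above 0 and 13 below, while the median of all genes compared was -0.25. Transcripts of low GC content had higher ratios throughout these libraries, with a Spearman rho of -0.43 between GC content and log2 ratio across 15684 genes of all kinds, which share the same pair of libraries and are not replicates. The germline transcripts had a median GC content of 47.8%, against 50.7% for all genes, and 12 of the 35 fell in the lowest of 10 equal bins of GC content. Of these 12, 3 were higher and 0 lower, against 30.1% and 4.59% of all genes in that bin. After a correction for GC content, the median of the germline genes was -0.02 and that of all genes -0.06, and 10 germline genes were higher (28.6%, against 12.7% of all genes) and 7 lower (20%, against 14.3%). 9 of the 11 higher genes were still called, *Smc1b* and *Tdrkh* were not, and *Rec8* was added. After the correction the median of the list was thus close to that of all genes, while its share of higher genes was above theirs. Scaling the libraries to a common median instead gave 13 germline genes higher and 5 lower, with 15.5% of all genes higher and 19.5% lower.

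**Figure D2:**
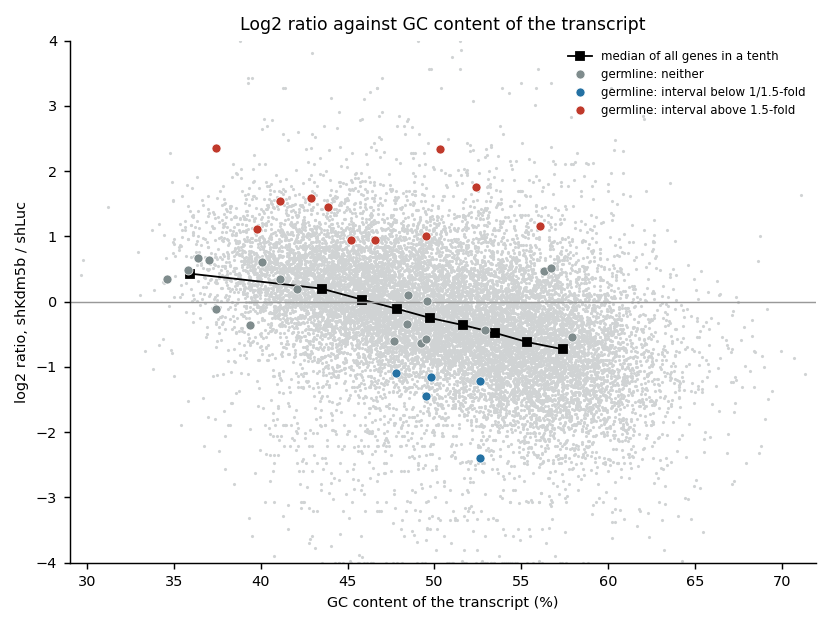
GC content of the transcript in percent (x axis) and log2 ratio of shKdm5b to shLuc (y axis, values past 4 in either direction drawn at the edge) for all genes compared (grey) and the germline genes (coloured by call), with black squares for the median of all genes in each of the lower 9 of 10 equal bins of GC content. The medians run from 0.43 in the lowest of these bins to -0.73 in the highest, and higher germline genes are found on both sides of 50.7%, the median GC content.

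By a second rule, a ratio above 1.5-fold with RPKM above 1 in at least 1 library, 13 of 30 germline genes were higher (43.3%, against 16.6% of 11804 genes of all kinds) and 5 lower (16.7%, against 32.8%). Among the higher ones, *Stra8*, *Brdt*, *Zp3* and *Figla* had RPKM above 1 only in shKdm5b. They were thus admitted through the library in which they were higher, while the 5 lower genes had RPKM above 1 in both. The share of higher genes by this rule is therefore not independent of the direction of change. This rule added *Dazl* and *Stk31* to the higher genes and *Prdm1* and *Piwil2* to the lower ones, and it did not reach the scarce *Tdrd7* and *Nobox*. Most germline genes were already transcribed in the control. 26 of the 37 had RPKM above 1 in shLuc and 30 in shKdm5b ES cells. The summed level of the 37 was 191 and 303 RPKM, and *Syce2* (64.8 and 130 RPKM) and *Sycp3* (9.70 and 49.8 RPKM) made up much of the difference. The median level was 2.13 and 2.71 RPKM. Of the 8 genes with a mean below 1 RPKM, 3 were higher and 2 lower, against 5.50% and 22.4% of all genes at that level. Of the 24 between 1 and 10 RPKM, 6 were higher and 2 lower, against 8.34% and 31.7%.

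**Figure D3:**
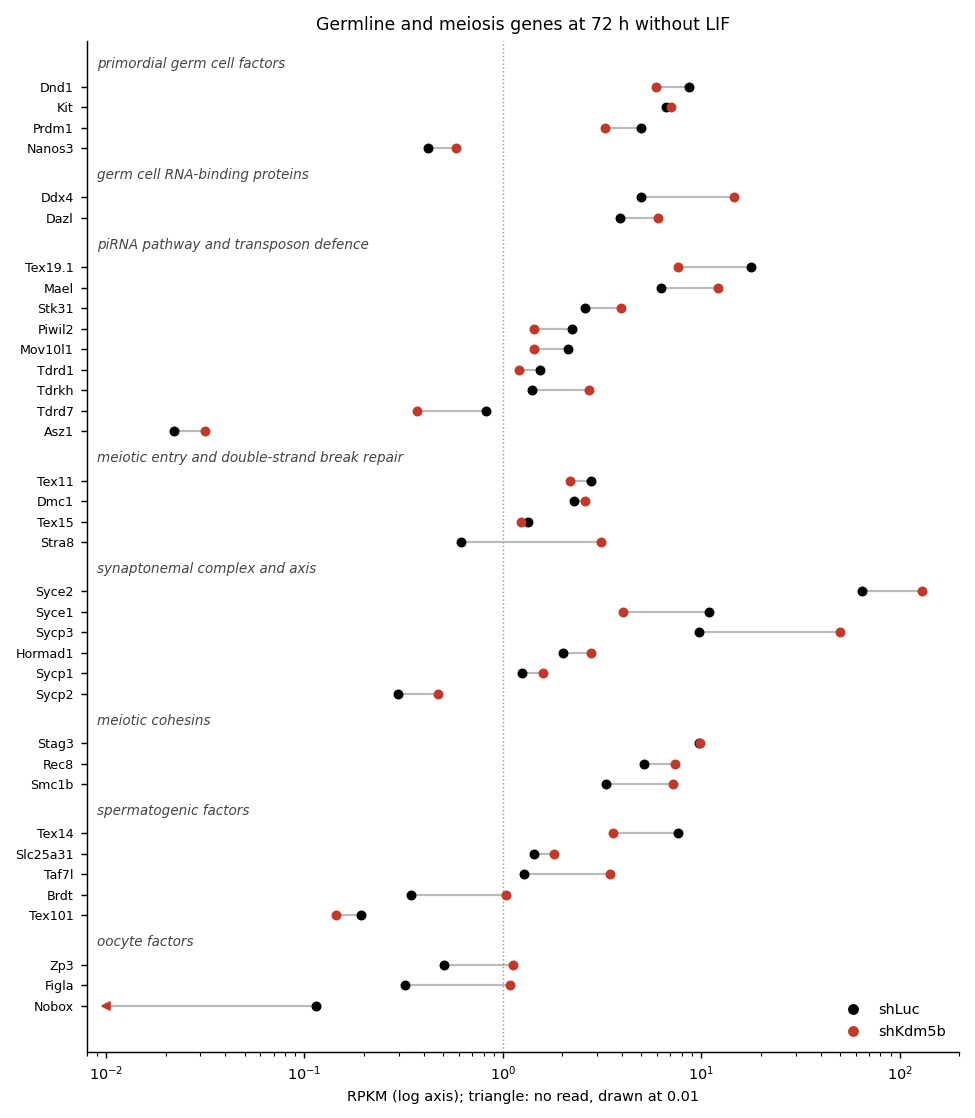
RPKM (log axis) of each germline gene in the control (black) and the shKdm5b library (red), grouped by role, with a dotted line at 1 RPKM and a triangle for 0 reads. *Syce2* has the highest level in both libraries (64.8 and 130 RPKM), the largest gaps to the right are those of *Sycp3* and *Stra8*, and the oocyte genes lie below 1 RPKM in the control.

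Promoter sequences were available for 32 of the 37 genes from RefSeq (GRCm38.p6), each running from 250 bases before to 50 bases after a transcription start. They were searched on both strands for TCCCGC, the core of E2F sites, and for CACGTG, the E-box, which do not overlap each other. The E2F core was in 15 of 32 germline promoters (46.9%), against 21.1% of the promoters of 27025 genes, and the E-box was in 14 (43.8%), against 7.39%. Both stood together in 9 promoters (28.1%), against 2.19%. Germline promoters were also richer in CpG, with a median of 20 CpG in 300 bases, against 8. The 14704 promoters of genes in the expression tables were closer, with a median of 16 CpG, the E2F core in 28.6%, the E-box in 8.55% and both in 3.14%. Among CpG-rich promoters alone (observed over expected CpG above 0.6, genes of the expression tables), the E2F core was in 50% of 24 germline promoters and 44.7% of 7873 promoters, and the E-box in 54.2% and 11.6%.

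Of the 11 higher genes, 7 had an E-box and 6 an E2F core, while of the 5 lower genes 0 had an E-box and 2 had an E2F core. Of the 16 other germline promoters, 7 had an E-box and 7 an E2F core. The groups also differed in CpG, with a median observed over expected value of 0.780 for higher, 0.625 for lower and 0.741 for the other promoters. Whether the split in E-boxes goes with CpG content was not tested, and E-boxes among all higher and all lower genes were not counted. These counts describe letters in a window, and binding of any factor was not measured here. The higher genes *Stra8*, *Figla*, *Smc1b* and *Tdrkh* had no E-box and are not shown. The promoters of 4 higher genes with an E-box and of 2 lower genes without one are shown 5′ to 3′ as examples picked by call and E-box, with the E-box and E2F core matches in capitals. They lie at chr10:88459337-88459636, plus strand (*Sycp3*), chr13:112652261-112652560, minus strand (*Ddx4*), chr1:166238695-166238994, minus strand (*Mael*), chrX:134476441-134476740, minus strand (*Taf7l*), chr7:140787805-140788104, minus strand (*Syce1*) and chr11:87404815-87405114, plus strand (*Tex14*).
Sycp3: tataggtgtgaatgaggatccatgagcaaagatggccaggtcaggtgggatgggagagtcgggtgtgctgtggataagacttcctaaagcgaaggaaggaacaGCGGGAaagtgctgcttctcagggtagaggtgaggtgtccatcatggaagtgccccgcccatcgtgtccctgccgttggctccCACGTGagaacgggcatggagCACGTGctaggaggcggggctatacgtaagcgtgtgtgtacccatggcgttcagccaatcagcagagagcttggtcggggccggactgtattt
Ddx4: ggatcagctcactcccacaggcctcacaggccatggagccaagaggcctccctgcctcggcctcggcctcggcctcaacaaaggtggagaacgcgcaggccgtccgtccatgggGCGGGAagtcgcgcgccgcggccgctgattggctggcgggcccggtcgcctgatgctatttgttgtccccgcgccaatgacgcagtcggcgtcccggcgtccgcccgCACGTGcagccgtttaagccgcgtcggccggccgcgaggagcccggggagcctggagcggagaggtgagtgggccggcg
Mael: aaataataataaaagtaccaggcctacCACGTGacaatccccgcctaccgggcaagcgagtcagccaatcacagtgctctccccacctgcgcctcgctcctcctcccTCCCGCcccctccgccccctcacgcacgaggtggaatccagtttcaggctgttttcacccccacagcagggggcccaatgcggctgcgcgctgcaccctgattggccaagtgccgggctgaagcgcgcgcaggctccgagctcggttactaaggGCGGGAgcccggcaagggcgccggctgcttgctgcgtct
Taf7l: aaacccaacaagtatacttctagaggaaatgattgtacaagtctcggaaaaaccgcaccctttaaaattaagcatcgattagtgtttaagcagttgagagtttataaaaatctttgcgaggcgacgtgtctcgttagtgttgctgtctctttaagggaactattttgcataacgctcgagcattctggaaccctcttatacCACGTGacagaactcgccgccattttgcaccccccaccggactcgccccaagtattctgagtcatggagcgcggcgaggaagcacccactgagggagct
Syce1: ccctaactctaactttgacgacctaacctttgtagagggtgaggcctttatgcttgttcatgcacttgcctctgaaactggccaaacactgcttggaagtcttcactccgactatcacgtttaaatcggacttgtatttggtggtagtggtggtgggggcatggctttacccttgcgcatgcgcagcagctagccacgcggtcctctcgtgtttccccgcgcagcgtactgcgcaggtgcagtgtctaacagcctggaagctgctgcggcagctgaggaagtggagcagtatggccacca
Tex14: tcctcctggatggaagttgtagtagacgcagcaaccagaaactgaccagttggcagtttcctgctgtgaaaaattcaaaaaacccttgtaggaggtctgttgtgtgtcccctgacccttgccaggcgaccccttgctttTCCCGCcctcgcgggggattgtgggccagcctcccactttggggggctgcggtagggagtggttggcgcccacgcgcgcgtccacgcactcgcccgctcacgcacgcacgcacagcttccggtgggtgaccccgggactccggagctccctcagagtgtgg

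In the *Sycp3* promoter, E-boxes began 64 and 43 bases before the start and the E2F core 147 bases before it. *Ddx4* had its E-box 29 bases and its E2F core 136 bases before the start. *Taf7l* had 1 E-box, 49 bases before the start, and no E2F core. In *Mael* the E-box lay further out, 223 bases before the start. *Syce1* had neither match, and *Tex14* had 1 E2F core 111 bases before the start. E-boxes also stood in promoters of genes called neither way, and *Hormad1* had 2 of them, 57 and 20 bases before the start.

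**Figure D4:**
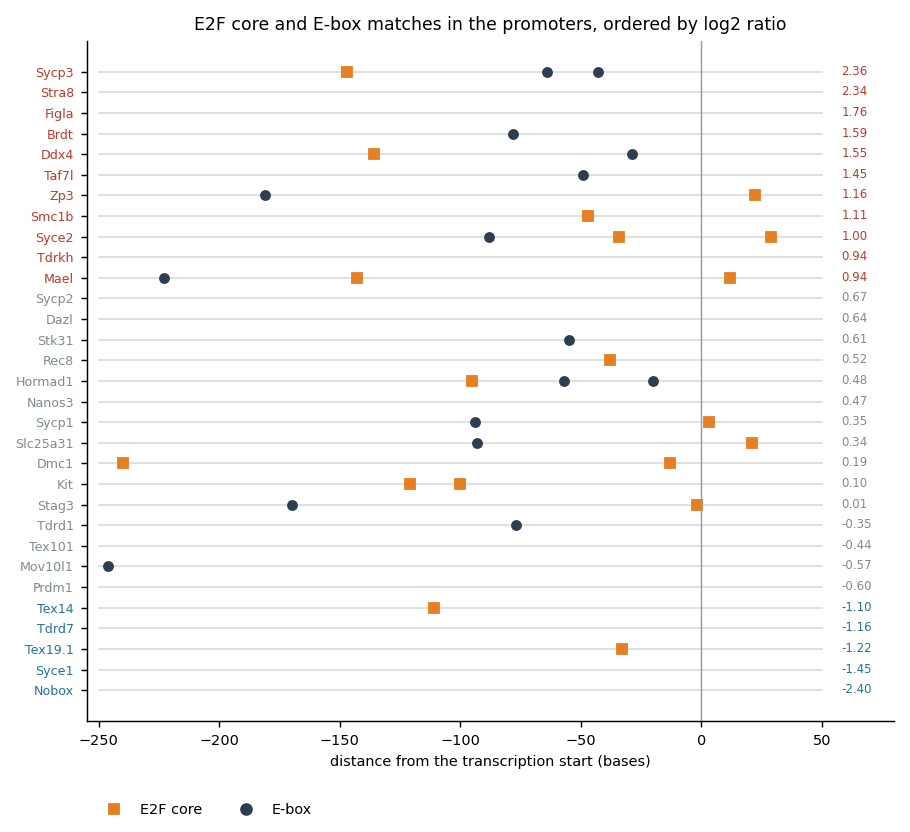
Distance from the transcription start in bases (x axis) of each E2F core (squares) and E-box (circles) in the germline promoters, ordered from the highest to the lowest log2 ratio, which is printed at the right and coloured by call (red higher, blue lower, grey neither). Circles are found in 7 of the 11 promoters at the top and in 0 of the 5 at the bottom.

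Of the 4 primordial germ cell factors in the set, 0 were higher and 0 lower by the counting interval, beside 11.2% and 25.2% of all genes. *Prdm1*, a transcriptional repressor that starts the germ cell programme, had 1992 reads (4.95 RPKM) in shLuc and 1222 reads (3.27 RPKM) in shKdm5b, a log2 ratio of -0.60 (interval -0.70 to -0.50). *Dnd1*, which protects germ cell mRNAs from microRNAs, had 8.66 and 5.95 RPKM, a log2 ratio of -0.54 that became 0.18 after GC correction. Part of this transcript (9.5% of its exon bases) overlaps *Wdr55* on the opposite strand, and the libraries are not stated to keep strand. *Kit*, the receptor for stem cell factor, was nearly level at 6.61 and 7.07 RPKM. *Nanos3*, a translational repressor needed for germ cell survival, was scarce, with 24 and 31 reads, and its interval ran from -0.34 to 1.31.

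Both germ cell RNA-binding proteins had more transcripts in shKdm5b ES cells, and *Ddx4* passed the limit. *Ddx4* encodes the VASA RNA helicase, and it had 1084 reads (5.00 RPKM) in shLuc and 2949 reads (14.6 RPKM) in shKdm5b, 2.93-fold higher, with a log2 ratio of 1.55 (interval 1.45 to 1.65) and of 1.12 after GC correction. *Dazl*, which promotes translation of germ cell mRNAs, had 3.88 and 6.04 RPKM, a log2 ratio of 0.64 (interval 0.51 to 0.76). GC bases make up 37.0% of this transcript, and the ratio was -0.04 after GC correction.

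The piRNA and transposon defence genes were split, with 2 higher, 2 lower and 4 past neither limit among the 8 compared. *Mael*, a component of the piRNA pathway that represses transposons, had 760 reads (6.29 RPKM) in shLuc and 1360 reads (12.1 RPKM) in shKdm5b, a log2 ratio of 0.94 (interval 0.82 to 1.07). *Tdrkh*, a tudor-domain protein that helps trim piRNAs, had 1.41 and 2.71 RPKM, also a log2 ratio of 0.94, and its interval after GC correction, 0.57 to 0.99, no longer cleared 1.5-fold. *Tdrkh* shares 5.5% of its exon bases with *Oaz3* on the opposite strand. *Oaz3* had 3 reads in shLuc and 10 in shKdm5b, against 293 and 523 for *Tdrkh*. *Stk31*, a tudor-domain kinase-like protein, had 2.60 and 3.96 RPKM, and its log2 ratio of 0.61 became 0.12 after GC correction.

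*Tex19.1*, which restrains retrotransposons in germ cells, pluripotent cells and placenta, showed the opposite direction. It had 2422 reads (17.8 RPKM) in shLuc, the second highest control level among the germline genes, and 966 reads (7.64 RPKM) in shKdm5b, 2.33-fold lower, with a log2 ratio of -1.22 (interval -1.33 to -1.11). Its near copy *Tex19.2* was scarcer but lower as well, with 107 and 44 reads and a log2 ratio of -1.18, and reads from similar stretches of the pair cannot be told apart. *Tdrd7*, a tudor-domain protein of germ granules, had 226 and 94 reads (0.824 and 0.368 RPKM), a log2 ratio of -1.16 (interval -1.52 to -0.81). Its call was lost after correction for GC content and length together (-0.84, interval -1.21 to -0.49).

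The other piRNA genes had smaller ratios, all below 0. *Piwil2*, which binds piRNAs, had 2.23 and 1.44 RPKM (log2 ratio -0.63), and *Mov10l1*, the helicase that starts piRNA processing, had 2.13 and 1.44 RPKM (-0.57). *Tdrd1*, a scaffold for PIWI proteins, had 1.54 and 1.21 RPKM (-0.35). None of the 3 lay past 1.5-fold over its whole interval.

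For entry into meiosis, *Stra8* stood apart from the recombination genes. *Stra8*, the retinoic acid target that starts the meiotic programme, had 70 reads (0.615 RPKM) in shLuc and 329 reads (3.11 RPKM) in shKdm5b, 5.05-fold higher, with a log2 ratio of 2.34 (interval 1.96 to 2.73) and of 2.56 after GC correction. The recombinase *Dmc1*, which pairs broken DNA with the homologous chromosome, had 2.28 and 2.60 RPKM, and its interval included equality (-0.02 to 0.39). *Tex15*, needed for repair of meiotic breaks, had 1.34 and 1.24 RPKM. *Tex11*, an X-linked crossover factor, had 2.80 and 2.18 RPKM, a log2 ratio of -0.36 (interval -0.53 to -0.20). Its shorter entry, with 469 and 269 reads, gave -0.70 (interval -0.92 to -0.48). Transcripts of *Tex15* and *Tex11* are low in GC, and after GC correction both were called lower, at -0.77 and -0.89.

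Synaptonemal complex genes held large differences in both directions, with 2 of 6 higher and 1 lower. *Sycp3*, a protein of the chromosome axis, had 850 reads (9.70 RPKM) in shLuc and 4062 reads (49.8 RPKM) in shKdm5b, 5.14-fold higher, with a log2 ratio of 2.36 (interval 2.25 to 2.47), the highest of the 35 genes. Corrected for GC content, its ratio was 1.71. In the GENCODE annotation of GRCm38, the gene lies at chr10:88459569-88473236, and 660 of its 1264 exon bases (52.2%) overlap *Chpt1*, a phospholipid synthesis gene on the opposite strand. *Chpt1* had 487 and 1353 reads, a log2 ratio of 1.58, and without strand the reads of the shared bases cannot be assigned. If such reads were counted for both genes, taking all *Chpt1* reads out of the shKdm5b value of *Sycp3* and none out of the shLuc value leaves 2709 against 850 reads, which is 3.43-fold higher.

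*Syce2*, a protein of the central element that joins the paired axes, was the most abundant transcript of the set. It had 3834 reads (64.8 RPKM) in shLuc and 7147 reads (130 RPKM) in shKdm5b, 2.0-fold higher, with a log2 ratio of 1.0 (interval 0.95 to 1.06). The kept entry is a short non-coding transcript of 757 bases, and the 3 other entries of the gene gave log2 ratios from 0.86 to 0.93. A correction for GC content and length together lowered its ratio to 0.47, and the call was lost. *Syce1*, also of the central element, went the other way, from 1254 reads (11.0 RPKM) in shLuc to 427 reads (4.02 RPKM) in shKdm5b, 2.73-fold lower, with a log2 ratio of -1.45 (interval -1.61 to -1.29) and of -1.29 after GC correction.

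The remaining axis genes were past neither limit, and their transcripts are the poorest in GC of the set. *Sycp1*, the transverse filament protein, had 1.25 and 1.6 RPKM, *Sycp2*, the partner of SYCP3, had 0.297 and 0.474 RPKM, and *Hormad1*, which monitors synapsis, had 2.01 and 2.79 RPKM. Their log2 ratios of 0.35, 0.67 and 0.48 became -0.47, -0.04 and -0.27 after GC correction.

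Of the 3 meiotic cohesins, which replace the mitotic subunits in the ring that holds sister chromatids, 1 was higher. *Smc1b* had 1051 reads (3.33 RPKM) in shLuc and 2105 reads (7.17 RPKM) in shKdm5b, 2.15-fold higher, with a log2 ratio of 1.11 (interval 1.0 to 1.21) that became 0.60 (interval 0.49 to 0.71) after GC correction. *Rec8*, the subunit cut at the meiotic divisions, had 5.15 and 7.38 RPKM and moved the other way under the correction, from 0.52 to 1.17. *Stag3* was level, at 9.80 and 9.86 RPKM, with a log2 ratio of 0.01 (interval -0.06 to 0.08).

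Spermatogenic factors gave 2 higher, 1 lower and 2 past neither limit. *Taf7l*, an X-linked subunit of the transcription machinery of male germ cells, had 193 reads (1.28 RPKM) in shLuc and 491 reads (3.49 RPKM) in shKdm5b, a log2 ratio of 1.45 (interval 1.21 to 1.70). *Brdt*, the bromodomain protein that remodels sperm chromatin, had 43 and 120 reads (0.346 and 1.04 RPKM), a log2 ratio of 1.59, and its longer entry, with 147 and 270 reads, gave 0.98 (interval 0.69 to 1.28). *Tex14*, which keeps the bridges between germ cells open, had 2858 reads (7.68 RPKM) in shLuc and 1241 reads (3.58 RPKM) in shKdm5b, 2.14-fold lower, with a log2 ratio of -1.10 (interval -1.2 to -1.0). *Slc25a31*, a germ cell ADP/ATP carrier, had 1.44 and 1.82 RPKM, and *Tex101*, a sperm surface protein, had 16 and 11 reads.

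All 3 oocyte genes were past a limit, on few reads. *Figla*, the factor that switches on zona pellucida genes, had 19 reads (0.320 RPKM) in shLuc and 60 reads (1.09 RPKM) in shKdm5b, a log2 ratio of 1.76 (interval 1.0 to 2.59). *Zp3*, a zona pellucida protein and a target of FIGLA, had 52 and 108 reads (0.505 and 1.13 RPKM), a log2 ratio of 1.16 (interval 0.67 to 1.67). *Nobox*, a homeobox factor of early follicles, had 17 reads (0.115 RPKM) in shLuc and 0 reads in shKdm5b. With the 0 set to the floor of 3 reads it was 5.27-fold lower, and the upper end of its counting interval was a log2 ratio of -1.94. Both higher genes were called after GC correction as well.

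**Figure D5:**
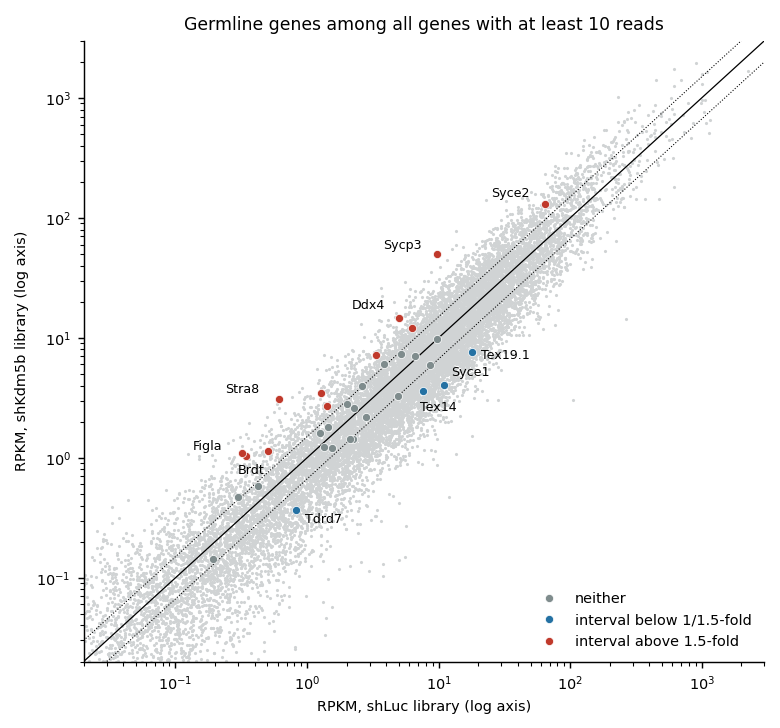
RPKM in the shLuc library (x axis) and the shKdm5b library (y axis), both on log axes, for all genes with at least 10 reads (grey) and the germline genes (coloured by call), with a solid line at equality and dotted lines at 1.5-fold. *Sycp3*, *Stra8* and *Figla* lie at the upper edge of the cloud of genes of similar level, and *Syce1*, *Tex14* and *Tex19.1* below the lower dotted line, while *Nobox*, with 0 reads in shKdm5b, is not drawn.

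In a wider list of 61 other germline genes, 49 had at least 10 reads. Of these, 5 were higher (10.2%, close to the 11.2% of all genes) and 4 lower (8.16%, against 25.2%), with a median log2 ratio of -0.13. By the RPKM rule, 7 of 23 were higher (30.4%, against 16.6% of all genes) and 2 lower (8.7%, against 32.8%). *Tex12* and *Gtsf1* (0.640 and 1.05 RPKM), both higher by this rule, passed its RPKM limit only in shKdm5b. With the limit at 0.1 RPKM, 11 of 46 were higher (23.9%, against 17.1%) and 15 lower (32.6%, against 35.1%). Scaling the libraries to a common median gave 7 higher (14.3%, against 15.5%) and 2 lower (4.08%, against 19.5%) by the counting interval. The higher genes were *Tex12*, a central element protein (0.311 and 1.07 RPKM), *Dppa3*, a maternal factor marking primordial germ cells (2.38 and 6.12 RPKM), *Tcfap2c*, a germ cell specification factor (3.24 and 7.23 RPKM), *Mnd1*, a cofactor of DMC1 (19.6 and 42.6 RPKM), and *Tdrd5*, a tudor-domain protein (1.47 and 2.77 RPKM). Beside *Tex19.2*, the lower genes were *Sohlh2* (14.6 and 6.59 RPKM) and *Sohlh1* (0.318 and 0.0962 RPKM), which encode a pair of factors of early germ cell differentiation, and *Piwil4* (0.631 and 0.193 RPKM), a nuclear PIWI protein. *Tex12*, *Sohlh1* and *Tex19.2* lost their calls after GC correction.

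Among 27 genes for the machinery known to silence germline promoters, 10 were lower (37.0%, against 25.2% of all genes) and 2 higher (7.41%, against 11.2%), with a median log2 ratio of -0.49, against -0.25. Scaling the libraries to a common median gave 7 lower (25.9%, against 19.5%) and 4 higher (14.8%, against 15.5%). *L3mbtl2*, a subunit of PRC1.6, had 42.9 RPKM in shLuc and 11.3 RPKM in shKdm5b (log2 ratio -1.92). *Ring1*, a ubiquitin ligase of polycomb complexes, had 4.10 and 1.14 RPKM (-1.84), and *Trim28*, which recruits H3K9 methylation, had 476 and 145 RPKM (-1.72). *Wdr5*, shared by PRC1.6 and H3K4 methyltransferases (-1.56), and *Kdm5c*, a relative of KDM5B that restrains germline genes (-1.36), were also lower, while *Rnf2* (0.66) and *Hdac2* (0.75) were higher. After GC correction, 7 were lower (25.9%, against 14.3% of all genes) and 1 higher (3.7%, against 12.7%). The 5 lower genes named here were among the 7, at -0.91 to -1.37, with *Mga* and *Hells* added, while the other 5 lower calls (*Tfdp1*, *Hdac1*, *Dnmt1*, *Dnmt3a* and *Ehmt2*) and both higher calls were lost (*Rnf2* 0.20, *Hdac2* 0.52), and the 1 higher gene was *Dnmt3l* (0.92). A link between these levels and the germline transcripts was not tested.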

How the data were processed

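Polyadenylated RNA from 1 shLuc and 1 shKdm5b culture was sequenced. For each RefSeq entry the authors deposited a whole-number read count, the transcript length and the RPKM, which normalizes the count to length and sequencing depth. The submitters' processing notes name CASAVA 1.0, Bowtie 0.12.7 and mm8, and the counting program is not given in the sources used here. The deposited BED files list aligned reads. The score column that the authors deposited in them is 0 on every line, so only the lines were counted, and they equal the totals behind the RPKM to within 0.00049%. A further value column in each table (1 per file) was not used.

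Members and gene lists were chosen with earlier results of these data known. The named genes are all members with at least 10 reads in both libraries together, *Kdm5b*, and from each other list the called genes, at most 5 in each direction. The members with fewer reads are named with their reads. *Postn*, *Col1a1*, *Pdgfrb*, *Dppa5a*, *Sox2*, *Nanog*, *Klf4*, *Utf1*, *Gtsf1*, *Chpt1* and the genes that overlap a member were named after their values were seen. The same holds for the silencing genes whose calls moved with GC correction. 64 other germline genes were listed, and 61 matched an entry, 9 of them by accession. The germ cell markers are in the closing section.

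Ratios are of reads scaled to library totals, with a library at 0 reads set to 3 reads. At these depths 3 reads on 1 kb are 0.0384 RPKM in shLuc and 0.0413 RPKM in shKdm5b. Intervals are exact Clopper-Pearson at 95% and cover counting error only. The GC correction subtracted a lowess curve (fraction 0.3) of log2 ratio on the GC content of the entry, which was found through GENCODE M21 (GRCm38) for 97.1% of symbols. Since the reads were aligned to another build, GRCm38 positions describe the genes and not the alignment. For genes with several promoters in the RefSeq table, the one with the most CpG was used. Alternatives were pseudocounts of 0.1 and 1 RPKM, scaling by the median or the 75th percentile, summed entries, other read and RPKM minimums, a 99% interval, a 2-fold limit, and correction for GC content alone or with length. The calculation was tested on simulated data. Python 3.11.15, pandas 2.3.3, SciPy 1.17.1 and statsmodels 0.14.6 were used.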

Additional observations from a re-analysis of the deposited data

How the results depend on the processing

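No paired analysis was possible because there was a single shLuc and a single shKdm5b library, and no result could be recomputed without a replicate. Scaling by the median or the 75th percentile moved all log2 ratios up by 0.17 or 0.19 (shifts of -0.17 and -0.19 were taken out). *Dazl* and *Stk31* then joined the higher genes, for a count of 13 (37.1%, against 15.5% and 16.2% of all genes). On the log2(RPKM + 1) scale, which shrinks scarce genes, 7 germline genes were higher (20%, against 8.22% of all genes). On that scale 3 were lower (8.57%, against 15.8%), and 3 of 30 were lower by the RPKM rule (against 26.5% of all genes). At 2-fold, 5 were higher (14.3%, against 4.03%) and 4 lower (11.4%, against 12.7%). By the RPKM rule 3 were lower at 2-fold (against 17.3% of all genes). That count was also 3 under median and 75th percentile scaling (against 26.1% and 25.2%). GC and length correction left 11 higher (31.4%, against 10.2%), 10 of them shared with the 11 of the report. It left 5 lower (14.3%, against 13.0%), so the share of lower genes was then not below that of all genes. Among the other germline genes, the 5 higher became 3 on the log2(RPKM + 1) scale (6.12%, against 8.22% of all genes) and 3 at 2-fold (6.12%, against 4.03%). With GC and length correction they became 2 (4.08%, against 10.2%). The 4 lower became 2 (4.08%) with a pseudocount of 0.1, both scalings, the 99% interval and 2-fold, against 12.7% to 22.8% of all genes. On the log2(RPKM + 1) scale 1 was lower (2.04%, against 15.8%). Silencing genes higher numbered 4 and 5 under median and 75th percentile scaling (14.8% and 18.5%, against 15.5% and 16.2%), and 0 at 2-fold (against 4.03%). With GC correction alone or with length they numbered 1 (3.7%, against 12.7% and 10.2%). Those lower numbered 6 at 2-fold (22.2%, against 12.7%) and 5 with GC and length correction (18.5%, against 13.0%). The *Kdm5b* log2 ratio of -5.12 was -4.72 on the log2(RPKM + 1) scale, -4.95 and -4.93 under the scalings and -4.87 with GC and length correction. Except where an alternative is stricter by construction, the cause of these shifts was not tested. None of the 11 higher and 5 lower germline genes called by their counting interval changed sign under these alternatives, but *Dazl*, called higher by the RPKM rule and under both scalings at up to 0.83, had a log2 ratio of -0.04 after GC correction. Scarce genes such as *Figla*, *Nobox* and *Tex101* are limited by depth.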

Other observations

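The genes that together specify primordial germ cells from the epiblast did not move as one. *Prdm1* and *Prdm14*, both transcriptional regulators of this step, had lower levels in the shKdm5b library, at 4.95 and 3.27 RPKM for *Prdm1* and at 3.96 and 2.88 RPKM for *Prdm14* (log2 ratio -0.46, interval -0.62 to -0.30), and neither passed 1.5-fold over its whole interval. The third, *Tcfap2c*, was higher, with 717 reads in shLuc and 1491 in shKdm5b and a log2 ratio of 1.16 (interval 1.03 to 1.29), which became 1.50 after GC correction. Of the 9 germ cell markers, 3 were higher (*Dppa3*, *Tcfap2c* and *Ddx4*) and 0 lower, beside 11.2% and 25.2% of all genes, and the *Dppa3* call was lost with GC and length correction (log2 ratio 0.56). The summed level of the 9 was 39.1 RPKM in shLuc and 53.8 RPKM in shKdm5b.

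The cofactors of the recombinase DMC1 also differed from each other. *Mnd1* had 1339 reads in shLuc and 2706 in shKdm5b, a log2 ratio of 1.12, while its partner *Psmc3ip* had 909 and 963 reads, a log2 ratio of 0.19 (interval 0.06 to 0.32). *Prdm14* and *Psmc3ip* were chosen after their values were seen.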
